A study of Homo sapiens with 9 samples.

Results

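The insulin-like growth factor (IGF) axis was described through 8 genes, the binding proteins IGFBP1, IGFBP3, IGFBP4, IGFBP6 and IGFBP7, the receptors IGF1R and IGF2R, and the adapter IRS1. They were taken by gene name from 27615 genes in the longest of 9 gene lists. Of the 8 genes, 6 are listed for all 9 libraries, while IGFBP1 and IGFBP6 appear in 8 lists and not in that of rimonabant replicate 1, which as used here ends before them. A line missing from a list is not a count of 0. The RNA came from MDA-MB-231, an established human triple-negative breast cancer line, and was sequenced after treatment with vehicle (DMSO), with rimonabant or with TXX-1-10, in 3 libraries per treatment. Rimonabant antagonizes CB1, a cannabinoid receptor, and was the parent molecule of TXX-1-10. Neither the dose nor the duration behind these libraries is given in the sources used here, so the compounds are set side by side and not as matched doses. Nothing in the labels says that the 3 libraries of a group came from separate cultures, so the p-values measure only the spread between these libraries, which may be technical.

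IGFs are secreted peptides that signal through IGF1R, a receptor tyrosine kinase, and IRS1 is a docking protein that links the activated receptor to PI3K and AKT. IGFBPs hold IGFs outside the cell and can either keep them from the receptor or carry them to it. IGF2R, also the cation-independent mannose 6-phosphate receptor, takes up IGF2 for degradation and carries lysosomal enzymes, and it has no kinase. In breast cancer cells the axis is known for promoting growth and survival.

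The lines that follow show the 250 bases upstream of the RefSeq start site of the 4 genes with both the clearest movement across treatments and an entry in the RefSeq table used (GRCh38.p14), 5′ to 3′ on the strand of the gene. IGFBP1 and IGFBP7 have no entry there. The windows are chr17:40443200-40443449 on the plus strand for IGFBP4, chr2:226799821-226800070 on the minus strand for IRS1, chr6:159968832-159969081 on the plus strand for IGF2R and chr7:45921273-45921522 on the minus strand for IGFBP3. Capitals mark the GC box letters GGGCGG, sought on both strands. They also mark the TATA box letters TATAAA. The E-box letters CACGTG are in capitals too.
IGFBP4: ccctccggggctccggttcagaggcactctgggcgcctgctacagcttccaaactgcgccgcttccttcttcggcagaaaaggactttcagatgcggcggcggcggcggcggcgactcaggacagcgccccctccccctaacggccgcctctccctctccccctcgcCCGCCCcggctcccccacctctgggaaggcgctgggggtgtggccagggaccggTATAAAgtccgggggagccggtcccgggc
IRS1: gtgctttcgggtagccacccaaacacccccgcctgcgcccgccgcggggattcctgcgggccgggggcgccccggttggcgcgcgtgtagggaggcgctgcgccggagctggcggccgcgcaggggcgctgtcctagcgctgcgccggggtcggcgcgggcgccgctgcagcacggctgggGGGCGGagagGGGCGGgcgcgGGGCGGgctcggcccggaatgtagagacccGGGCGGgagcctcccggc
IGF2R: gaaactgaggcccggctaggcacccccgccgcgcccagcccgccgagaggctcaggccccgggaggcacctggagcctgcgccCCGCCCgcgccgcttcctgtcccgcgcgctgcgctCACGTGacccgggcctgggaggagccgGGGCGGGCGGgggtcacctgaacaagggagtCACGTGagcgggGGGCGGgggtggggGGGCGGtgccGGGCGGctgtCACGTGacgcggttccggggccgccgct
IGFBP3: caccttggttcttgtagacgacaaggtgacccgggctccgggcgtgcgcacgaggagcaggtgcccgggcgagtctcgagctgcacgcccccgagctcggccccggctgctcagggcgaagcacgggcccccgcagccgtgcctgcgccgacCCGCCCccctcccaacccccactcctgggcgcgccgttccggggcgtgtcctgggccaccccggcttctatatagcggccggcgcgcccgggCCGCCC
Among these windows IGFBP4 alone holds the exact letters TATAAA, which end 23 bases before the start site. They occur on either strand in 10.7% of 35116 promoters of the same length. Other TATA-like letters, such as TATATA in the IGFBP3 window, were not sought or marked. The IRS1 window holds 4 GC boxes and no TATAAA, and 7.63% of promoters hold 4 or more GC boxes. The IGF2R window holds 6 GC boxes, 2 of which overlap, and 3 E-boxes, a palindrome bound by MYC and by the MITF and TFE factors, and 0.0797% of promoters hold 3 or more E-boxes. The E-box was added to the motif list after these windows had been seen, so its rarity is a description of a motif noticed here. The IGFBP3 window holds 2 GC boxes, both on the opposite strand, and its last 2 bases are annotated as exon in GENCODE. None of the 4 windows holds the AP-1 letters TGANTCA, the FOXO letters TGTTTAC, the cAMP response element TGACGTCA, the CHOP-ATF letters TGATGNAA or the CCAAT box on either strand. The hypoxia core ACGTG occurs in these windows only inside the E-boxes of IGF2R, with which it shares its letters, in both directions. Of the windows not shown, that of IGFBP6 holds the FOXO letters and that of IGF1R holds the hypoxia core. A match is a description of letters and not a site of binding.

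By the annotation of GENCODE release 29 (GRCh38), whose coordinates the lists share, IGFBP1 (ENSG00000146678) lies on chromosome 7 from 45888357 to 45893668 on the plus strand. IGFBP3 (ENSG00000146674) lies beside it, from 45912245 to 45921874 on the minus strand, so that the 3′ ends of both genes face each other across 18576 bases. IGFBP4 (ENSG00000141753) lies on chromosome 17 from 40443461 to 40457731, and IGFBP6 (ENSG00000167779) on chromosome 12 from 53097436 to 53102345, both on the plus strand. IGFBP7 (ENSG00000163453) lies on chromosome 4 from 57030773 to 57110385 on the minus strand, where 270 of its exonic bases overlap those of POLR2B on the other strand. IGF1R (ENSG00000140443) lies on chromosome 15 from 98648539 to 98964530 and IGF2R (ENSG00000197081) on chromosome 6 from 159969099 to 160113507, both on the plus strand. IRS1 (ENSG00000169047) lies on chromosome 2 from 226731317 to 226799759 on the minus strand.

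Levels are given as FPKM, the count scaled by gene length and by the library total, which was 17078370 to 19277808 reads as recovered from the values. Which reads this total holds is not given in the sources used here. It lies below the sum of the listed counts in vehicle replicate 1 (17078370 against 17492638) and replicate 3 (17221591 against 17383157) and above it in every other library, for example in TXX-1-10 replicate 2 (18394759 against 16836181). Every FPKM and fold change rests on it. With TMM scaling in its place, the median log2 fold change of the genes in the 9-library table under TXX-1-10 was 0.004 instead of -0.095, and the same genes among the 8 counted as changed. A gene is said to have risen or fallen when edgeR's quasi-likelihood test gave an adjusted p under 0.05, and to have changed when its log2 fold change was also at least 1 in size. All p-values below are from this test with Benjamini-Hochberg adjustment over all genes of the fit. Rimonabant replicate 1 and TXX-1-10 replicate 3 stood apart from their groups in the same way. Their deviations from the other replicates fell with gene length, with a Spearman rho of -0.693 and -0.692 over 4237 genes listed for all 9 libraries. In the vehicle libraries rho was 0.0028 to 0.0277 in size. The other libraries of both treated groups gave 0.477 to 0.667, each measured against a mean that includes the library that stood apart. The labels name no batch. MDA-MB-231 markers were high, with VIM at 280 FPKM and AXL at 217 FPKM in vehicle, whereas ESR1, the estrogen receptor, had 3 to 8 reads in the libraries that list it. The luminal keratin KRT8 was also present, at 68.5 FPKM in vehicle. Markers of leukocytes and endothelium had at most 23 reads and those of fibroblasts at most 135, with CD3E not analysed here, and SPARC, a mesenchymal marker, was near its floor with 18 to 46 reads. The summed level of the 6 mesenchymal markers listed for all libraries was 1330 to 1335 FPKM in vehicle, 996 to 1096 under rimonabant and 856 to 945 under TXX-1-10, and that of 3 luminal markers was 150 to 156, 86.9 to 105 and 84.9 to 97.6 FPKM. The mesenchymal markers did not move together. The log2 fold changes of CAV1, LGALS1, AXL, CD44, VIM and MSN were -2.70, -1.34, -0.78, -0.52, 0.04 and 0.13 under TXX-1-10. In the same order they were -1.53, -0.76, -0.21, 0.25, -0.18 and 0.11 under rimonabant. The part of the marker genes in the results below was not tested, and in bulk RNA fewer cells of a type and less RNA per cell cannot be told apart.

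Under TXX-1-10, IGFBP4 and IRS1 changed, both lower, and under rimonabant IGFBP1 and IRS1 changed, both lower. Thus 2 of 8 genes changed under TXX-1-10, where 12.7% of the 9369 genes tested in the 8-library table changed (14.5% of all 11711 tested genes, with 7.75% lower). The count was also 2 of 8 under rimonabant, where 1.49% of the genes of that table changed (2.37% of all tested genes, with 1.14% lower). Between the compounds only IGFBP1 changed, higher under TXX-1-10, against 6.41% of that table (7.34% of all, with 2.85% higher). By adjusted p alone, 2 genes rose and 3 fell under TXX-1-10, and 0 rose and 5 fell under rimonabant, where 70.6% and 41.9% of all tested genes passed. Between the compounds 4 were higher and 3 lower under TXX-1-10, where 57% of all tested genes passed. The median log2 fold change of the 8 genes was -0.16 under TXX-1-10 and -0.35 under rimonabant, and that of all tested genes was -0.02 and 0.01. Both comparisons use the same vehicle libraries, so they are not independent of each other. The 8 genes were chosen with earlier results of these data known. Their counts beside the shares of all genes are therefore a description and not a test.

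**Figure D1:**
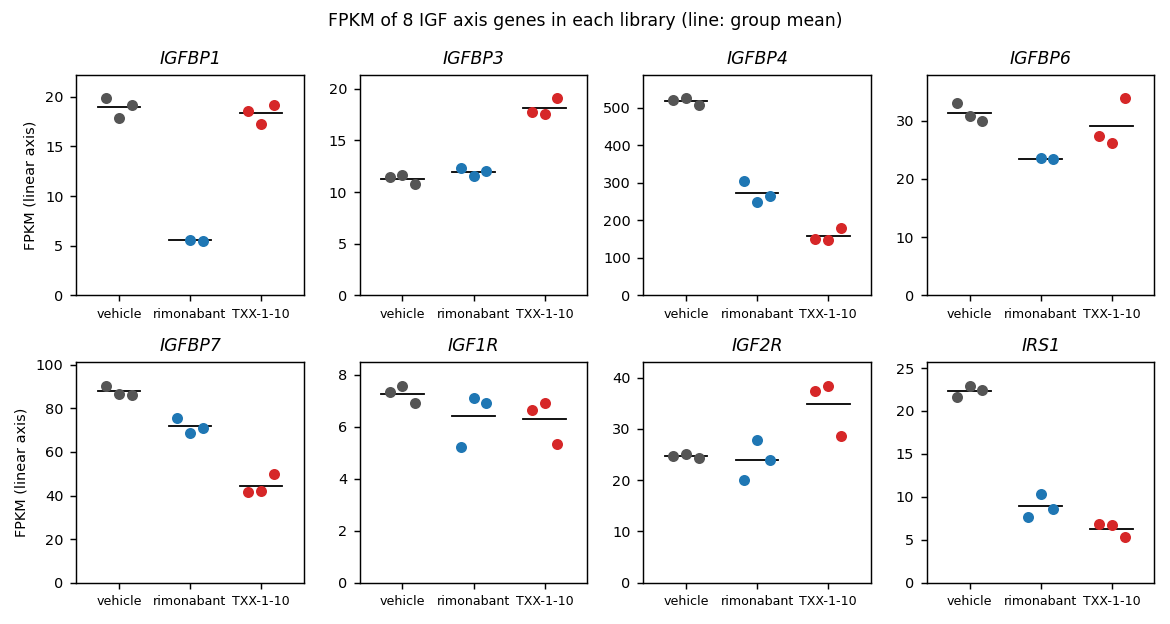
Levels of the 8 genes in each library, as FPKM on a linear axis that starts at 0, with 1 point per library (replicates 1 to 3 from left to right) and a line at the group mean. IGFBP4 and IRS1 are low under both compounds, IGFBP1 only under rimonabant (5.52 and 5.56 FPKM), and the rimonabant libraries of IGFBP1 and IGFBP6 number 2.

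IGFBP4, which binds IGFs and is generally found to restrain their action, was the most abundant member in every group. It measured 522, 526 and 507 FPKM in the vehicle libraries, 304, 249 and 265 FPKM under rimonabant, and 150, 149 and 180 FPKM under TXX-1-10. The 3 groups do not overlap. IGFBP4 fell 3.25-fold under TXX-1-10 (log2 fold change -1.70, 95% interval -1.91 to -1.50, adjusted p = 7.27e-08). Under rimonabant it fell 1.90-fold (log2 fold change -0.93, interval -1.13 to -0.72, adjusted p = 3.2e-05), just short of the fold that counts as changed. Without rimonabant replicate 1, where this short gene stood 0.24 log2 units above the other replicates, the value was -1.01, and 3 genes instead of 2 changed under rimonabant. In the 8-library table, which also leaves that library out, 1.49% of the genes changed under rimonabant. Leaving out 1 library at a time gave -1.01 to -0.86 for IGFBP4 under rimonabant. The direct comparison also separated the compounds, with IGFBP4 lower under TXX-1-10 by a log2 fold change of -0.78 (interval -0.98 to -0.57, adjusted p = 3.69e-05).

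IGFBP7, a binding protein of low IGF affinity that is laid down in the matrix, moved in the same direction but less. Its levels were 90.5, 86.8 and 86.0 FPKM in vehicle, 75.7, 68.8 and 70.8 FPKM under rimonabant, and 41.8, 42.3 and 49.7 FPKM under TXX-1-10, again with no overlap between groups. It fell 1.97-fold under TXX-1-10 (log2 fold change -0.98, interval -1.14 to -0.82, adjusted p = 6.47e-07) and 1.22-fold under rimonabant (-0.29, interval -0.45 to -0.13, adjusted p = 0.00662). Between the compounds it was lower under TXX-1-10 by a log2 fold change of -0.69 (interval -0.85 to -0.53, adjusted p = 1.61e-05). Without TXX-1-10 replicate 3 its log2 fold change under TXX-1-10 was -1.06, and 3 genes instead of 2 changed. Whether the counting used strand is not given in the sources used here, and POLR2B, the polymerase subunit whose exons it overlaps, also fell, by 0.50 and 0.18 on the log2 scale under TXX-1-10 and rimonabant.

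IGFBP1, a secreted binding protein whose transcription is known to be repressed by insulin, had the largest difference between the compounds among the 8 genes. Its vehicle levels were 19.8, 17.9 and 19.2 FPKM, and the TXX-1-10 libraries lay within almost the same range at 18.6, 17.2 and 19.2 FPKM. The rimonabant libraries that list it, replicates 2 and 3, stood at 5.56 and 5.52 FPKM, from 173 and 169 reads, far below both other groups. IGFBP1 fell 3.42-fold under rimonabant (log2 fold change -1.77, interval -1.98 to -1.57, adjusted p = 1.09e-07). Under TXX-1-10 no difference from vehicle passed the test (log2 fold change -0.05, interval -0.21 to 0.11, adjusted p = 0.544). Against rimonabant it was 3.31-fold higher under TXX-1-10 (log2 fold change 1.72, interval 1.52 to 1.93, adjusted p = 2.01e-08).

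IGFBP3, the main IGF carrier of serum and also active in cells apart from IGFs, went the other way. It measured 11.4, 11.7 and 10.7 FPKM in vehicle, 12.3, 11.6 and 12.1 FPKM under rimonabant, and 17.8, 17.6 and 19.1 FPKM under TXX-1-10. Only the TXX-1-10 libraries stood clear of the others, while vehicle and rimonabant overlapped. IGFBP3 rose 1.61-fold under TXX-1-10 (log2 fold change 0.68, interval 0.56 to 0.81, adjusted p = 1.51e-06). The rimonabant difference of 0.08 did not pass (interval -0.04 to 0.21, adjusted p = 0.245), and the direct difference between the compounds was 0.60 (interval 0.48 to 0.72, adjusted p = 7.21e-06). The neighbours IGFBP1 and IGFBP3 thus had unlike values under each compound.

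IGFBP6, which prefers IGF2 to IGF1, moved little. Its levels were 33.0, 30.8 and 30.0 FPKM in vehicle and 27.3, 26.2 and 33.8 FPKM under TXX-1-10, which overlap, and 23.5 and 23.4 FPKM in rimonabant replicates 2 and 3, below all other libraries. It fell 1.33-fold under rimonabant (log2 fold change -0.41, interval -0.64 to -0.19, adjusted p = 0.00616). Under TXX-1-10 the difference was -0.10 (interval -0.30 to 0.09, adjusted p = 0.314). TXX-1-10 replicate 3, the library that stood apart, was the highest of its group for this short gene, and without it the TXX-1-10 difference was -0.22 with an adjusted p of 0.00289. Between the compounds IGFBP6 was higher under TXX-1-10 by 0.31 on the log2 scale (interval 0.09 to 0.53, adjusted p = 0.0199), which no longer passed without rimonabant replicate 2 or 3 (adjusted p = 0.0862 and 0.0913), where the lone rimonabant library is assumed to vary like the other groups, or in a fit of those groups only (adjusted p = 0.0505). Without TXX-1-10 replicate 3 the difference was 0.19 (adjusted p = 0.0243).

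The binding proteins were unequal in abundance, so their summed level followed IGFBP4. IGFBP3, IGFBP4 and IGFBP7, which all 9 lists hold, summed to 617 ± 11.9 FPKM in vehicle (SD, n = 3), 357 ± 32.0 FPKM under rimonabant (n = 3) and 222 ± 22.7 FPKM under TXX-1-10 (n = 3). Of the summed FPKM of all 5 binding proteins, IGFBP4 made up 77.1% to 78.1% in vehicle, 69.5% and 70.4% in rimonabant replicates 2 and 3, and 58.7% to 59.6% under TXX-1-10. These shares were given no test.

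**Figure D2:**
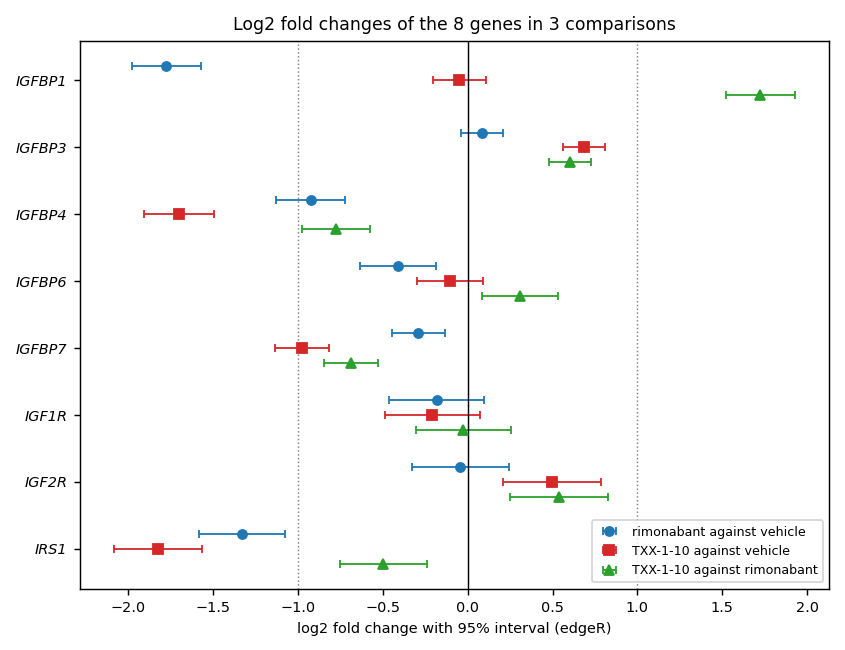
Log2 fold changes of the 8 genes with 95% intervals from edgeR, for rimonabant against vehicle (circles), TXX-1-10 against vehicle (squares) and TXX-1-10 against rimonabant (triangles), with dotted lines at a log2 fold change of 1 in size. IGFBP1 lies at -1.77 for rimonabant and -0.05 for TXX-1-10, and the intervals of IGF1R cross 0 in all 3 comparisons.

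IGF1R, the signalling receptor, was the lowest member in vehicle and did not pass the test in any of the 3 comparisons. It measured 7.34, 7.58 and 6.89 FPKM in vehicle, 5.20, 7.10 and 6.92 FPKM under rimonabant, and 6.65, 6.92 and 5.32 FPKM under TXX-1-10. The lowest library of each treated group was the one that stood apart by gene length. IGF1R, at 13941 bases, is longer than 94.9% of the genes in the 9-library table, and those libraries read 0.43 and 0.35 log2 units below their replicates for it. Its log2 fold change was -0.21 under TXX-1-10 (interval -0.49 to 0.07, adjusted p = 0.159) and -0.18 under rimonabant (interval -0.46 to 0.10, adjusted p = 0.256). In the 8-library table the TXX-1-10 value was again -0.21 but passed with an adjusted p of 0.0419, and after the correction for gene length it was -0.19 with an adjusted p of 0.0122, but without TXX-1-10 replicate 3 the value shrank to -0.10 (adjusted p = 0.433), without both libraries that stood apart it was also -0.10 (adjusted p = 0.0629), and with TMM scaling it was -0.11 (adjusted p = 0.496). Without rimonabant replicate 1 the rimonabant value shrank to -0.05 (adjusted p = 0.673). The call for IGF1R under TXX-1-10 thus depends on the setting, and the size of the difference on the libraries that stood apart and on the scaling. Between the compounds the difference was -0.03 (interval -0.31 to 0.26, adjusted p = 0.873).

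IGF2R rose under TXX-1-10. Its levels were 24.7, 25.2 and 24.2 FPKM in vehicle, 20.1, 27.8 and 24.0 FPKM under rimonabant, and 37.5, 38.5 and 28.6 FPKM under TXX-1-10. All TXX-1-10 libraries lay above all others, although replicate 3 came close to the highest rimonabant library. IGF2R rose 1.41-fold under TXX-1-10 (log2 fold change 0.50, interval 0.21 to 0.78, adjusted p = 0.00538) and was 1.45-fold higher than under rimonabant (0.54, interval 0.25 to 0.83, adjusted p = 0.00422). At 17843 bases it is longer than 97.9% of genes, and without TXX-1-10 replicate 3, which read 0.41 log2 units low for it, the TXX-1-10 value was 0.62. Leaving out 1 library at a time gave 0.42 to 0.62. Rimonabant gave -0.04 (interval -0.33 to 0.24, adjusted p = 0.811). Within each library the ratio of IGF2R to IGF1R, both long genes, was 3.32 to 3.52 in vehicle, 3.47 to 3.92 under rimonabant and 5.38 to 5.63 under TXX-1-10, with TXX-1-10 replicate 3 at 5.38.

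IRS1 fell under both compounds. It measured 21.7, 23.0 and 22.4 FPKM in vehicle, 7.67, 10.4 and 8.63 FPKM under rimonabant, and 6.82, 6.71 and 5.38 FPKM under TXX-1-10. None of the 3 groups overlap, and vehicle stands far above the others. IRS1 fell 3.54-fold under TXX-1-10 (log2 fold change -1.83, interval -2.08 to -1.57, adjusted p = 2.31e-07) and 2.51-fold under rimonabant (-1.33, interval -1.58 to -1.08, adjusted p = 1.6e-05). Under TXX-1-10 it was 1.41-fold lower than under rimonabant (log2 fold change -0.50, interval -0.75 to -0.24, adjusted p = 0.00353). Both libraries that stood apart were the lowest of their groups for this gene of 9953 bases. Leaving out 1 library at a time gave log2 fold changes of -1.89 to -1.72 under TXX-1-10 and -1.45 to -1.23 under rimonabant. The ratio of IRS1 to IGF1R in the same library was 2.95 to 3.25 in vehicle, 1.25 to 1.48 under rimonabant and 0.97 to 1.02 under TXX-1-10.

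In order of mean FPKM, vehicle ran IGFBP4, IGFBP7, IGFBP6, IGF2R, IRS1, IGFBP1, IGFBP3 and IGF1R, and no neighbours overlapped in their ranges. Under rimonabant IGF2R overlapped IGFBP6 in the next place and IGF1R overlapped IGFBP1 at the bottom. Under TXX-1-10 IGF2R overlapped IGFBP6, IGFBP1 overlapped IGFBP3, and IRS1 overlapped IGF1R at the bottom.

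The nearest genes to each changed member were taken by distance in the plane of both log2 fold changes against vehicle, within the table of that member, which holds 3 libraries per group or 2 for rimonabant. For IRS1 they were TGM2 (distance 0.07 log2 units, at -1.87 under TXX-1-10 and -1.39 under rimonabant), KRT81 and GPRC5A. For IGFBP4 they were TRIM14 (0.08, at -1.62 and -0.91), TNFRSF21 and COL12A1. No gene came as close to IGFBP1, whose nearest were MIR100HG at a distance of 0.76, NOTCH3 and IL7R. MIR100HG stood at -1.03 under rimonabant and -0.21 under TXX-1-10.

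The rest of the axis was taken from 6 lists of 102 genes, of which 81 were tested. Under TXX-1-10, 8 of them changed higher and 6 lower, which is 17.3% beside 14.5% of all tested genes, and their median log2 fold change was 0.12. Under rimonabant 2 changed, both higher, which is 2.47% beside 2.37%. Between the compounds 3 changed higher and 3 lower, 7.41% beside 7.34%. These shares lie near those of all genes.

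**Figure D3:**
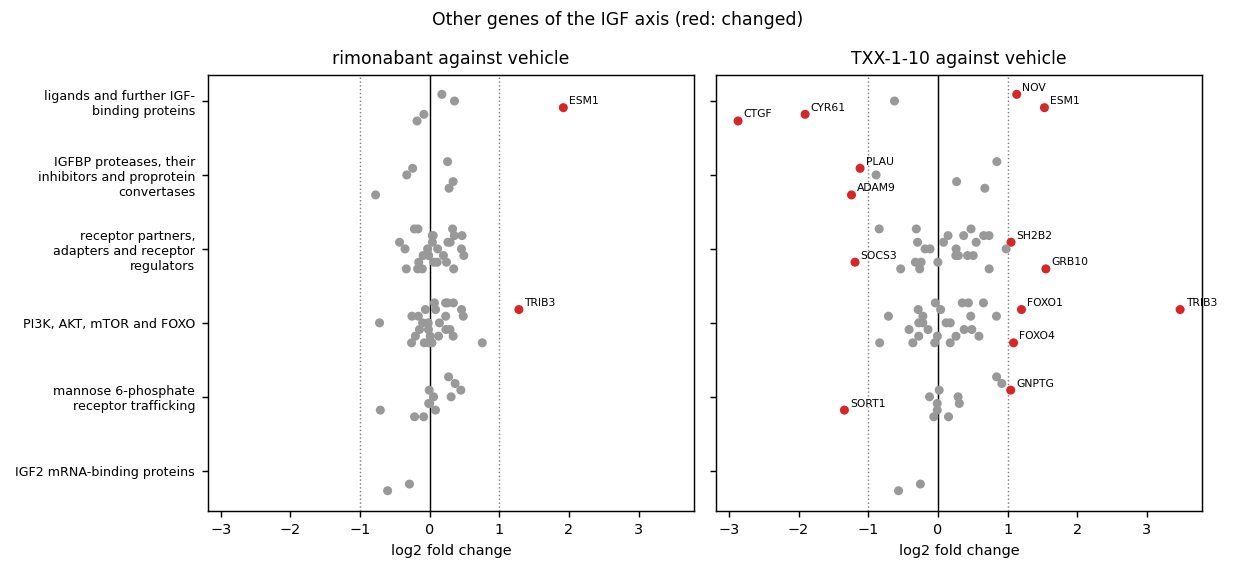
Log2 fold change of each tested gene of the 6 IGF axis lists under rimonabant (left) and TXX-1-10 (right), with 1 point per gene, red and named where changed. CTGF at -2.87 and TRIB3 at 3.48 lie farthest out under TXX-1-10, and ESM1 and TRIB3 are the only red points under rimonabant.

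Among the ligands and further IGF-binding proteins, 5 of 11 were tested. Under TXX-1-10 2 changed higher and 2 lower, where 14.5% of all tested genes changed. The ligands IGF1, IGF2 and INS were not analysed here. IGFBP2 and IGFBP5 had 0 reads in the 5 and 4 libraries that list them, where a count of 0 allows up to 3 reads by counting error alone. CTGF (CCN2) and CYR61 (CCN1), matricellular proteins with an IGFBP-like domain, fell under TXX-1-10. CTGF measured 158, 161 and 160 FPKM in vehicle, 147, 133 and 142 FPKM under rimonabant, and 20.3, 22.0 and 23.3 FPKM under TXX-1-10. The TXX-1-10 libraries stand apart as a group, with a log2 fold change of -2.87 (interval -3.01 to -2.73, adjusted p = 3.35e-10) against -0.18 under rimonabant (adjusted p = 0.0241) and -2.69 between the compounds (adjusted p = 1.82e-09). CYR61 gave -1.91 under TXX-1-10 (adjusted p = 3.79e-09) and -0.08 under rimonabant (adjusted p = 0.308). Their relative NOV (CCN3) rose by 1.13 under TXX-1-10 (adjusted p = 1.26e-08). ESM1, a proteoglycan of low level, rose by 1.53 under TXX-1-10 and by 1.92 under rimonabant (adjusted p = 2.32e-05 and 5.48e-05). It was tested in a table of 7 libraries, with 30 and 36 reads in vehicle replicates 1 and 3.

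Of 13 IGFBP proteases, protease inhibitors and convertases, 6 were tested. Under TXX-1-10 2 changed lower and 0 higher, where 14.5% of all tested genes changed. The changed genes were ADAM9, a metalloprotease, at -1.24 (adjusted p = 6.78e-09), and PLAU, urokinase, at -1.12 (adjusted p = 4.73e-07). Under rimonabant ADAM9 fell by 0.78 and PLAU by 0.25 (adjusted p = 2.35e-06 and 0.0214). PAPPA, the metalloprotease that cleaves IGFBP4, had a mean of 0.95 FPKM and so missed the minimum of 1. It had 367, 345 and 363 reads in vehicle, 137 and 125 reads in rimonabant replicates 2 and 3, and 86, 84 and 48 reads under TXX-1-10, with no overlap between groups. In the fit without that minimum, its log2 fold change was -2.42 (SE 0.15, adjusted p = 1.81e-08) under TXX-1-10 and -1.57 (SE 0.16, adjusted p = 1.24e-05) under rimonabant. STC1, which inhibits PAPPA, rose by 0.85 under TXX-1-10 (adjusted p = 5.63e-07) and by 0.26 under rimonabant (adjusted p = 0.00621). STC2, also on this list, had only 14 to 31 reads in 6 libraries. In the fit without that minimum STC2 gave -1.07 under TXX-1-10 (adjusted p = 0.0198) and -0.82 under rimonabant (adjusted p = 0.0909). HTRA1, a secreted serine protease, fell by 0.89 under TXX-1-10 (adjusted p = 5.61e-06). Other proteases of the list rose under TXX-1-10, namely CTSD, the lysosomal protease cathepsin D, by 0.67 (adjusted p = 0.000254) and FURIN, a proprotein convertase, by 0.27 (adjusted p = 0.00405). Under rimonabant FURIN rose by 0.34 (adjusted p = 0.00226), and the CTSD difference of 0.28 did not pass (adjusted p = 0.0578). By adjusted p alone 3 of the 6 tested genes were higher and 3 lower under TXX-1-10, where 70.6% of all tested genes passed.

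Of 31 receptor partners, adapters and regulators, 27 were tested. Under TXX-1-10 2 changed higher (GRB10 and SH2B2) and 1 lower (SOCS3), where 14.5% of all tested genes changed. Under rimonabant 0 changed, where 2.37% of all tested genes did. By adjusted p alone, 14 rose and 9 fell under TXX-1-10, where 70.6% of all tested genes passed. GRB10, an adapter that binds and restrains the insulin and IGF1 receptors, measured 6.33, 7.45 and 6.40 FPKM in vehicle, 8.29, 8.51 and 8.78 FPKM under rimonabant, and 20.3, 19.6 and 19.1 FPKM under TXX-1-10. The groups do not overlap, and the log2 fold change was 1.55 under TXX-1-10 (adjusted p = 1.3e-08) and 0.34 under rimonabant (adjusted p = 0.00194). SOCS3, an inhibitor of cytokine and insulin receptor signalling, fell by 1.19 under TXX-1-10 (adjusted p = 2.84e-09), with 0.06 under rimonabant (adjusted p = 0.45). INSR, the insulin receptor, rose by 0.51 under TXX-1-10 and by 0.49 under rimonabant (adjusted p = 0.000106 and 0.000965).

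IRS2, the paralogue of IRS1, measured 16.8, 17.3 and 16.4 FPKM in vehicle, 12.6, 13.4 and 13.5 FPKM under rimonabant, and 16.5, 14.9 and 15.3 FPKM under TXX-1-10. Vehicle and TXX-1-10 overlap, and rimonabant lies below both. Its log2 fold change was -0.11 under TXX-1-10 (interval -0.23 to 0.01, adjusted p = 0.0761) and -0.35 under rimonabant (adjusted p = 0.000462). The ratio of IRS1 to IRS2 within a library was 1.29 to 1.37 in vehicle, 0.61 to 0.77 under rimonabant and 0.35 to 0.45 under TXX-1-10, so IRS1 was above IRS2 in all vehicle libraries and below it in all treated ones.

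Of 32 genes of PI3K, AKT, mTOR and FOXO, 29 were tested. Of these 3 changed under TXX-1-10, each of them higher, where 14.5% of all tested genes changed. TRIB3, a pseudokinase that binds AKT and is induced by stress, rose by 3.48 under TXX-1-10 (interval 3.27 to 3.68, adjusted p = 6.62e-10) and by 1.28 under rimonabant (interval 1.08 to 1.48, adjusted p = 5.71e-06). It was the 1 gene of this list that changed under rimonabant, where 2.37% of all tested genes changed. The transcription factors FOXO1 and FOXO4, which AKT keeps out of the nucleus, rose by 1.20 and 1.09 under TXX-1-10 (adjusted p = 2.07e-06 and 2.78e-05) and by 0.46 and 0.75 under rimonabant (adjusted p = 0.0149 and 0.00304), in a table of 7 libraries. DDIT4, an mTOR inhibitor induced by stress, fell by 0.72 under rimonabant (adjusted p = 3.73e-05) and rose by 0.18 under TXX-1-10 (adjusted p = 0.0423). By adjusted p alone, 13 of the 29 rose and 8 fell under TXX-1-10, a share near the 70.6% of all tested genes. PIK3R3, a regulatory subunit of PI3K, had a mean of 0.62 FPKM and so missed the minimum. In the fit without that minimum it gave -1.27 under TXX-1-10 (adjusted p = 1.51e-05) and -0.06 under rimonabant (adjusted p = 0.769).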

How the data were processed

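Polyadenylated RNA of MDA-MB-231 cells was sequenced by the authors (oligo(dT) selection, NEBNext Ultra, Illumina). Per the submitters' processing notes, HISAT2 2.0.5 and featureCounts 1.5.0-p3 were used. For each library the authors deposited the raw read count of each gene and its FPKM, which is that count divided by gene length and by 1 total per library. Solving each line for this total gave 1 value per library, which served as library size.

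Every list follows a shared gene order, roughly from abundant to rare, and breaks off partway. Each gene was therefore tested in the table with the most libraries: 9 (4236 genes), else 8, 7 or 6, with 11711 genes in all and a mean FPKM of at least 1. edgeR 4.0.16 (R 4.3.3) fitted the 3 groups together (glmQLFit, glmQLFTest) without a replicate block. The standard error is the log2 fold change divided by the square root of F, which is approximate. limma 3.58.1 and DESeq2 1.42.0 were alternatives, beside TMM, other filters, a replicate block, a correction for gene length (lowess, span 0.3) and each library left out.

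Named genes are the 8 members, the genes of the IGF axis and marker lists, and the 3 nearest genes of each changed member. The members and lists were chosen with earlier results of these data known. Upstream sequence came from RefSeq (GRCh38.p14), in which 6 of the 8 genes matched. Python 3.11.15 was used for the plots (matplotlib 3.10.9) and for the tables (pandas 2.3.3, with numpy 2.4.6).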

Additional observations from a re-analysis of the deposited data

How the results depend on the processing

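The counts for single genes use the adjusted p threshold of 0.05 alone and not the log2 fold change of 1. Over 21 alternative settings, 469 of 492 alternative values for single genes kept their direction and their side of that threshold, 3 no longer passed, 5 newly passed, and 15 turned in sign. All 15 were small values that the test had not called. IGFBP1 under TXX-1-10 became 0.0046 with TMM and 0.051 with the length correction, with or without the block. IGFBP6 under TXX-1-10 became 0.0070 with the length correction and 0.0075 with the block added. IGF2R under rimonabant became 0.092 with the length correction, 0.091 with the block added, and 0.069 without rimonabant replicate 1, without both libraries that stood apart or in the 8-library table. IGF1R between the compounds became 0.060 with TMM, 0.061 with DESeq2, 0.055 and 0.033 without rimonabant replicates 2 and 3, and 0.082 without TXX-1-10 replicate 3. Leaving out 1 library at a time gave -0.16 to 0.069 for that IGF2R value and -0.15 to 0.082 for that of IGF1R. The cause of these turns was not tested.

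The count of changed genes stayed at 2 to 3 against vehicle for both compounds and at 1 between them. Leaving out 1 library gave 2 to 3 in both comparisons against vehicle. Without both libraries that stood apart, 3 genes changed under TXX-1-10 (IGFBP7 added) and 3 under rimonabant (IGFBP4 added). In that setting 512 and 47 of the 4236 genes of the 9-library table changed under TXX-1-10 and rimonabant. Of the 9369 genes of the 8-library table, 1219 and 140 did. With limma on log2(FPKM + 1), which understates low genes, 76 genes of the 8-library table changed under rimonabant against 140 with edgeR.

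With the replicate number as a block, 2, 2 and 1 members changed, as without it, and the counts in the 9-library table were 501, 48 and 250 against 500, 48 and 251. Deviations of same-numbered libraries correlated at -0.093 to 0.044 between vehicle and either compound, and at -0.79, 0.80 and -0.59 between the compounds. The deviations of the treated libraries also carry the trend with gene length. These correlations therefore cannot decide whether the numbers pair the samples.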

Other observations

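Of 12 genes of mannose 6-phosphate receptor trafficking, all tested, 1 changed higher (GNPTG) and 1 lower (SORT1) under TXX-1-10. Under rimonabant 0 changed. The shares of all tested genes that changed were 14.5% under TXX-1-10 and 2.37% under rimonabant. M6PR, the smaller cation-dependent receptor that shares cargo with IGF2R, measured 43.6 to 44.2 FPKM in vehicle, 54.2 to 59.4 FPKM under rimonabant and 81.2 to 84.7 FPKM under TXX-1-10. The groups do not overlap, and the log2 fold change was 0.92 under TXX-1-10 (edgeR adjusted p = 4.33e-08) and 0.36 under rimonabant (edgeR adjusted p = 0.000158). GNPTG, a subunit of the enzyme that makes the mannose 6-phosphate tag, rose by 1.04 under TXX-1-10, and NAGPA, which uncovers the tag, rose by 0.84 (edgeR adjusted p = 1.13e-07 and 6.62e-07). Under rimonabant GNPTG rose by 0.45 and NAGPA by 0.27 (edgeR adjusted p = 0.00158 and 0.0242). SORT1, another sorting receptor, fell by 1.34 under TXX-1-10 and by 0.71 under rimonabant (edgeR adjusted p = 2.93e-08 and 2.03e-05).

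IGF2BP2, which binds IGF2 mRNA, fell under both compounds, by 0.57 under TXX-1-10 and 0.60 under rimonabant (edgeR adjusted p = 7.14e-06 and 2.61e-05), and the direct difference was 0.04 (interval -0.09 to 0.17, edgeR adjusted p = 0.559). IGF2BP3 fell by 0.25 and 0.29 (edgeR adjusted p = 0.0146 and 0.0222).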
